A study of Mus musculus with 30 samples.

Results

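Transcripts of 10 matrix proteoglycan genes were followed across 30 mouse RNA-seq libraries of tumours, 3 from each of 10 implanted lines. The genes were taken by symbol and were found as 10 of the 55291 gene symbols in the table. Lum, Dcn, Bgn, Fmod, Ogn, Aspn, Prelp and Omd encode the small leucine-rich proteins lumican, decorin, biglycan, fibromodulin, mimecan, asporin, prolargin and osteomodulin. Vcan and Acan encode versican and aggrecan, large proteoglycans that bind hyaluronan. The groups were the tumour lines MC38 and CT26 (colon carcinoma), MC38OVA and CT26NYESO1 (named for an added antigen, ovalbumin or NY-ESO-1), EMT6 (mammary carcinoma), LL2 (Lewis lung carcinoma), CMS5a (fibrosarcoma), Renca (renal carcinoma) and the melanoma sublines B16F1 and B16F10. Every group was a subcutaneous tumour taken at a length of 10 mm and labelled as CD45+ infiltrating immune cells. The labels name BALB/cJ and C57BL/6J hosts, and tumours with or without injected OK-432 for 24 hours, without saying which library had which, so neither was used as a group. No age or genotype of the mice is given, and nothing states whether the 3 libraries of a line came from separate mice, so the p-values measure only the spread between these libraries, which may be technical.

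Small leucine-rich proteoglycans sit on collagen fibrils and control how thick and how regular the fibrils become. Decorin and biglycan carry chondroitin or dermatan sulfate chains, whereas lumican and fibromodulin carry keratan sulfate. Decorin also binds TGF-beta and growth factor receptors, and soluble biglycan can act on Toll-like receptors of macrophages. Versican is a matrix molecule of tumour stroma, and aggrecan is the main proteoglycan of cartilage. In tissues these genes are chiefly products of fibroblasts and other mesenchymal cells, which do not carry CD45.

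The labelled cell type was checked against markers. Ptprc, which encodes CD45, ranged from 2.7 TPM (transcripts scaled to a total of 1000000 in each library) in a B16F10 library to 215 in an MC38OVA library, and all 10 leukocyte genes on the list had a mean of at least 1 TPM in every line. Markers of other cells were present as well: the summed TPM of 12 fibroblast genes ran from 26.0 in a B16F10 library to 5787 in a CMS5a library, and melanocyte genes summed to between 1473 and 13669 TPM in the B16 sublines against at most 1.31 in the other lines. The protocol describes RNA from suspensions of digested tumours, the label names CD45+ cells, and whether cells were sorted is not stated. The proteoglycan values describe the RNA that was sequenced. Any enrichment of CD45+ cells, which may differ by line, is unknown, and its part in the differences between lines was not tested. In such bulk samples, fewer cells of a type and less RNA per cell cannot be told apart. B16F1 replicate 2 stood apart, with 39.0% of its TPM in mitochondrial transcripts. The lowest correlation between libraries of a line (r = 0.975) was that of B16F1 replicates 2 and 3, so it does not single out replicate 2. Levels and calls of the proteoglycan genes that rest on replicate 2 are given with and without it. Correlations over line means, correlations with marker sums and values of other genes include it.

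Of the 10 genes, 9 passed the filter for testing (at least 1 TPM in at least 3 libraries). Levels were compared as log2(TPM + 1), and a gene was called when its Benjamini-Hochberg adjusted p from limma was under 0.05 and its log2 fold change was at least 1. Since the pseudocount of 1 shrinks changes of low genes, fold changes on this scale understate them. Over the 10 lines, 9 of 9 tested genes were called, where 85.5% of all tested genes were. The lines' means lay 6.93 apart on the log2 scale for the median tested proteoglycan gene and 1.71 apart for the median of all tested genes. A member that passes such a filter through a few lines has to vary, so the count describes the genes and supports nothing more. In the order of line means, 27 of 81 neighbouring pairs of lines had libraries that did not overlap, against 15.5% of such pairs over all tested genes. Across the 90 comparisons of a gene in 1 line with the mean of the other 9 lines, 28 were higher and 40 lower. The shares over all tested genes are given by line further below. The comparisons of a gene share its line means, so a gene high in a few lines has to lie below the compared mean in others. The 2 totals therefore describe the genes and support nothing more.

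**Figure D1:**
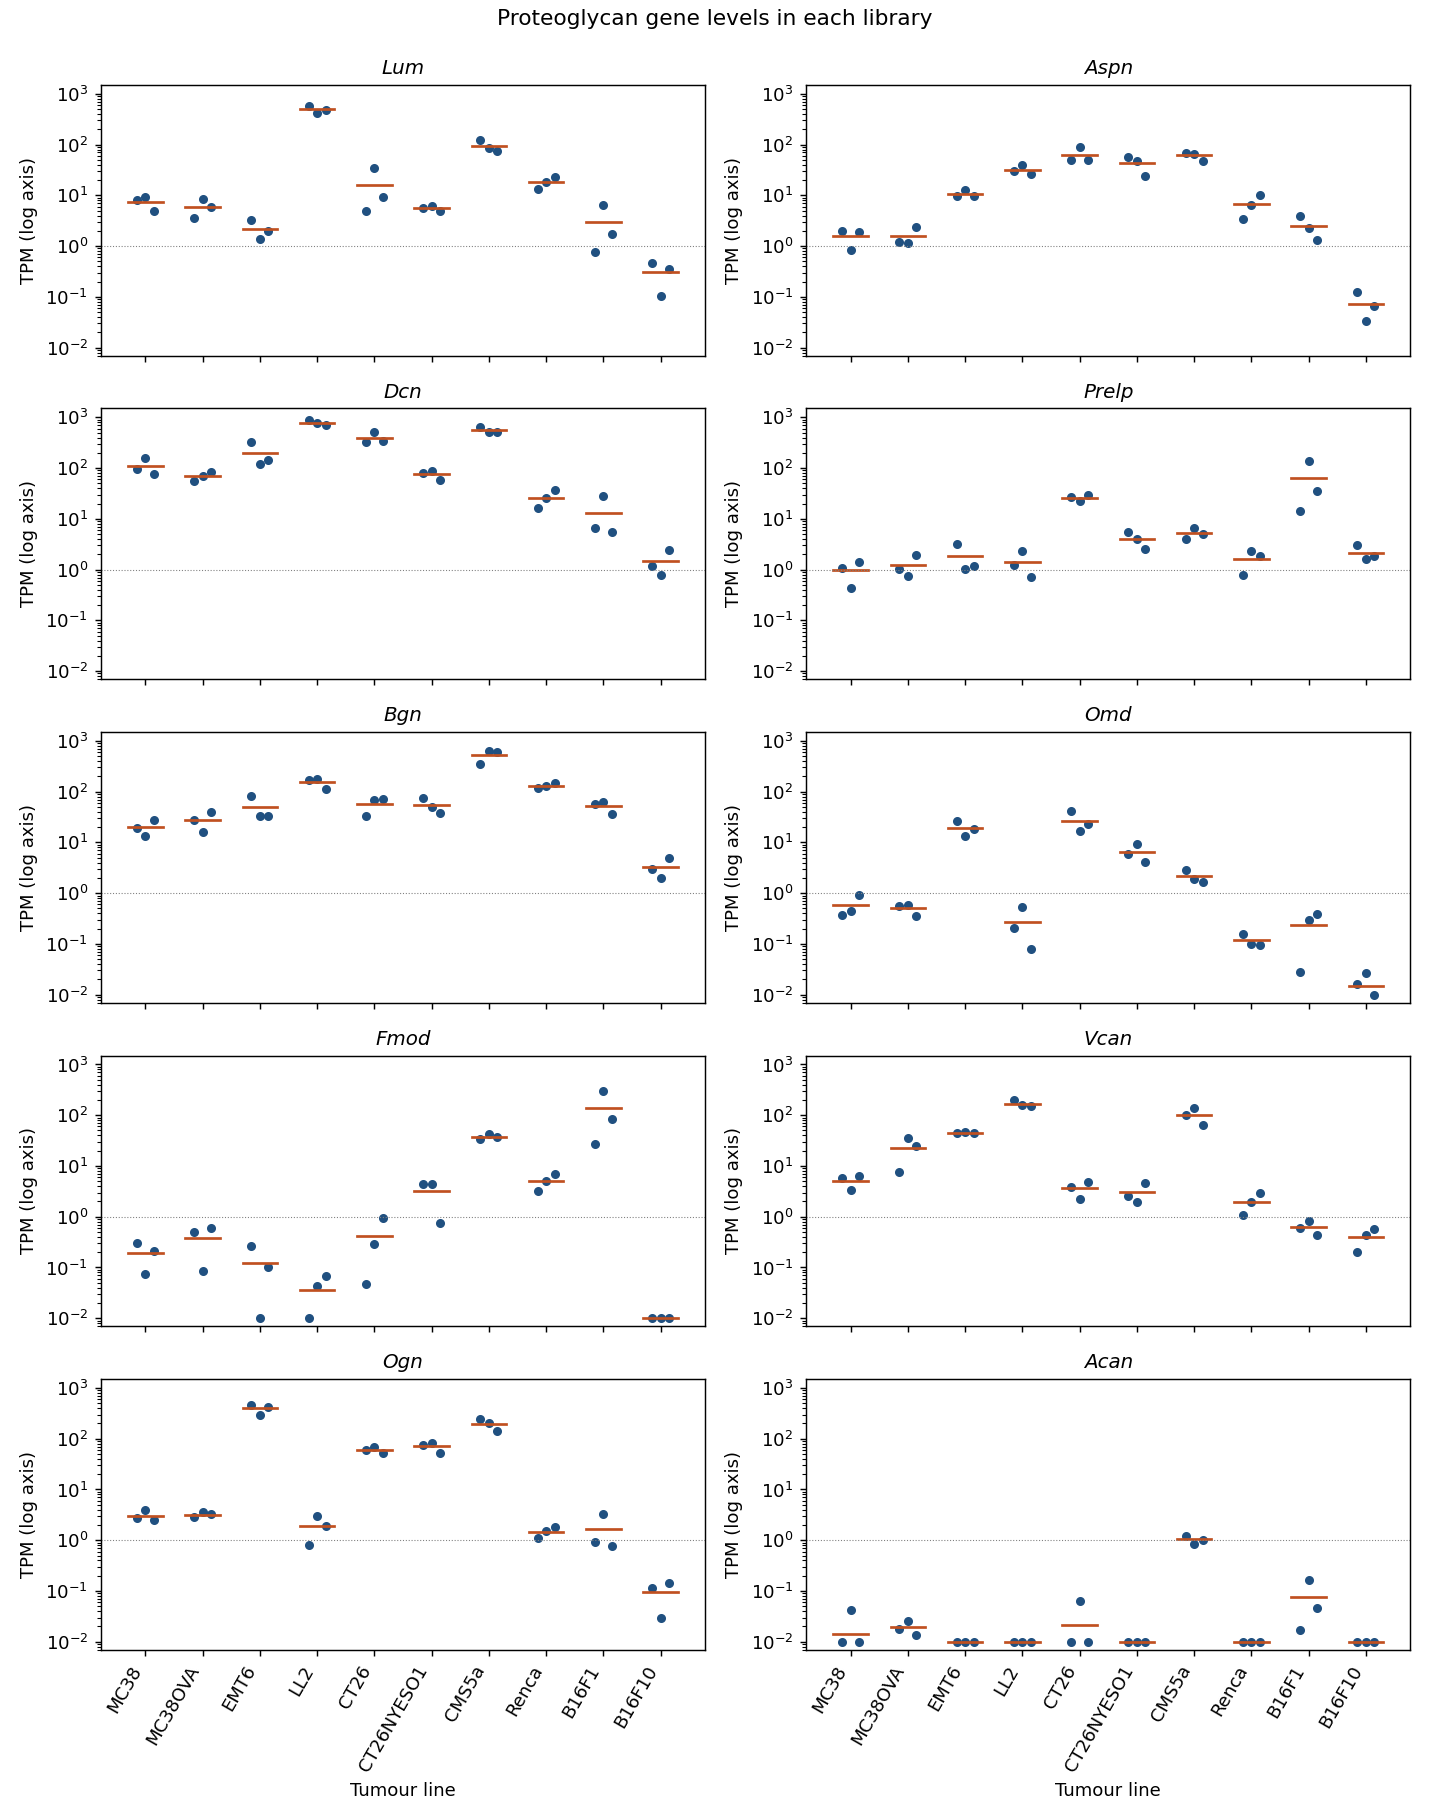
TPM of each proteoglycan gene (log axis) in the 3 libraries of each tumour line (points), with the mean of the line as a bar and 1 TPM as a dotted line; values under 0.01 TPM are drawn at 0.01. LL2 and CMS5a stand highest for Lum, Dcn and Vcan, EMT6 for Ogn, and B16F1 for Fmod. The Prelp mean is highest in B16F1 only with its replicate 2 included, and B16F10 is lowest for 8 of the 9 tested genes.

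Lum and Dcn are neighbours on mouse chromosome 10 (mm10), Dcn at chr10:97479609-97518143 and Lum at chr10:97565128-97572703, both on the plus strand with a gap of 46.98 kb. Lum, which encodes the keratan sulfate proteoglycan lumican, was a transcript of LL2 above all. Its TPM was 581.6, 420.0 and 485.4 in the LL2 libraries and 122, 85.2 and 74.4 in CMS5a. Every LL2 library lay above every CMS5a library, and CMS5a lay above the next line, Renca, at 13.2, 18.6 and 22.8. Against the mean of the other lines, Lum was higher by 5.98 ± 0.34 (log2, SE; adjusted p = 8.1e-14) in LL2 and by 3.30 ± 0.34 in CMS5a. CT26 libraries held 4.92, 34.0 and 9.16 TPM, the widest spread of Lum by fold outside B16F1. Lum fell by 2.14 in EMT6, by 2.03 in B16F1 (2.62 without its replicate 2) and by 3.54 in B16F10, whose libraries held at most 0.475 TPM.

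Dcn, which encodes decorin, had the highest level of any of these genes in a single library. LL2 held 879.7, 777.9 and 722.1 TPM, and CMS5a held 660.0, 514.8 and 505.1. The next lines were CT26 at 332.6, 505.8 and 337.2 TPM and EMT6 at 321, 123 and 145. LL2 lay above CMS5a in every library, whereas CMS5a and CT26 overlapped. Dcn was higher than in the other lines by 3.66 ± 0.31 (adjusted p = 2.5e-10) in LL2, by 3.09 ± 0.31 in CMS5a and by 2.50 ± 0.31 in CT26. The EMT6 rise of 1.28 rested on its first library: without that library it was 0.86 (adjusted p = 0.055), and with the B16 sublines left out of the compared lines it was 0.19. Dcn fell by 1.82 in Renca, by 3.17 in B16F1, and it dropped by 5.66 in B16F10, where TPM was 1.17, 0.769 and 2.45.

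Although Lum and Dcn correlated over the 10 line means (r = 0.75, log2) and within lines (r = 0.74 over 30 libraries, 0.65 over the 27 without B16F1), their ratio was not constant. The median Lum to Dcn ratio of TPM was 0.661 in LL2 and 0.736 in Renca, but 0.0114 in EMT6 and 0.0272 in CT26. EMT6 therefore held Dcn with little Lum. These correlations are descriptions, and the points share libraries and whatever mix of cells each tumour held. Kera, the keratocan gene that follows Lum on the chromosome after 34.17 kb, had means of 4.37 TPM in LL2 and 4.48 in CMS5a and had a mean under 0.5 in each of CT26, CT26NYESO1, MC38OVA and Renca, being listed at 0 in every library of MC38, EMT6, B16F1 and B16F10. Its libraries held 4.58, 4.09 and 4.45 TPM in LL2 and 6.63, 4.503 and 2.31 in CMS5a, and 1 CT26 library reached 1.03.

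Bgn, which encodes biglycan, lies on chromosome X. It was the member found at 1 TPM or more in all 30 libraries, and its level was highest in CMS5a, with 348, 623 and 596 TPM. LL2 held 168, 177 and 115, and Renca 117, 127 and 147. CMS5a lay above every LL2 library, while LL2 and Renca overlapped. The log2 difference from the other lines was 3.63 ± 0.28 (adjusted p = 2.7e-11) in CMS5a, 1.70 ± 0.28 in LL2 and 1.45 ± 0.28 in Renca. The Renca rise became 0.97 with the B16 sublines left out of the compared lines. Bgn fell by 4.07 in B16F10 (3.06, 2.03 and 4.85 TPM), by 1.53 in MC38 and by 1.05 in MC38OVA, the last becoming -0.72 (adjusted p = 0.092) without MC38OVA replicate 2.

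The balance of biglycan and decorin transcripts turned around between lines. The median Bgn to Dcn ratio of TPM was 0.134 in CT26, 0.190 in LL2 and 1.18 in CMS5a, but 5.002 in Renca and 6.70 in B16F1. In Renca it was above 4 in every library (7.03, 5.002 and 4.01), and in CT26 below 0.21 in every library (0.102, 0.134 and 0.210). Renca thus combined a called rise of Bgn with a called fall of Dcn. The promoter of Bgn is shown because this gene was at 1 TPM or more in every library. Its 200 bases before the RefSeq start, on the plus strand of GRCm38.p6 (the mm10 build), chrX:73483401-73483600, read as follows, with matches to the GC box GGGCGG on either strand in capitals.
Bgn: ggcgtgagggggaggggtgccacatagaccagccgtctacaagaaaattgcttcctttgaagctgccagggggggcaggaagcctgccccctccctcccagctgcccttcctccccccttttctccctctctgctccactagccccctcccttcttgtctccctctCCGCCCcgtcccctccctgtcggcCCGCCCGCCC
The stretch holds 3 GC boxes, of which the last 2 lie 10 and 6 bases before the start and overlap at their ends, and has 67.0% G or C. Over 32817 mouse promoters of the same length, 31.0% held a GC box and the median G and C content was 53.0%. A match is a run of letters, and no binding was measured.

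Fmod and Prelp lie on chromosome 1, Prelp at chr1:133910304-133921414 on the minus strand and Fmod at chr1:134037254-134048277 on the plus strand, with 115.84 kb and no start of another protein-coding gene between them. Prelp overlaps the opposite-strand gene Gm15851, whose line means were at most 0.180 TPM. Fibromodulin and prolargin both bind collagen, and prolargin also binds heparan sulfate. Both genes had their highest line mean in B16F1, a line in which most of the family was low. For Prelp this rank rested on B16F1 replicate 2: without it the B16F1 mean was 24.7 TPM, below the 26.3 of CT26. Fmod TPM was 26.7, 306.0 and 82.5 in B16F1 and 33.5, 43.1 and 36.5 in CMS5a, so that the B16F1 libraries spanned the CMS5a range. Renca held 3.19, 4.99 and 6.98 TPM and CT26NYESO1 4.34, 4.504 and 0.756. In the other lines Fmod did not reach 1 TPM in any library, and in B16F10 it was listed at 0 in all 3.

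Prelp TPM was 14.6, 141 and 34.8 in B16F1 and 26.9, 22.7 and 29.4 in CT26. These were the lines in which its mean passed 10 TPM, and their libraries overlapped. Against the other lines, Fmod was higher by 5.25 ± 0.37 (adjusted p = 2.1e-12) and Prelp by 3.49 ± 0.35 (adjusted p = 3.6e-09) in B16F1. Fmod was also higher by 3.90 ± 0.37 in CMS5a, and Prelp by 2.76 ± 0.35 in CT26. Fmod fell in 6 lines, by 1.44 in CT26 to 1.95 in B16F10, but each of these falls is measured against a mean carried by B16F1 and CMS5a. Prelp fell by 1.48 in MC38, 1.28 in MC38OVA, 1.18 in LL2 and 1.03 in Renca. The falls in MC38OVA, LL2 and Renca were weak: with the B16 sublines left out of the compared lines they were -0.96, -0.85 and -0.70, the LL2 value was -0.95 (adjusted p = 0.081) without LL2 replicate 3, and the Renca value was -0.77 (adjusted p = 0.14) without Renca replicate 1, -0.99 without EMT6 replicate 1 and -0.93 without B16F1 replicate 2.

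B16F1 replicate 2 carried much of the mean in that line. It held 5.60 times the Fmod and 5.71 times the Prelp of the mean of the other 2 libraries, and 4.71 times the Dcn. Mean TPM in B16F1 was 138 with it and 54.6 without it for Fmod, and 63.5 and 24.7 for Prelp. The log2 differences from the other lines became 4.36 for Fmod and 2.63 for Prelp, and both were still called; without replicate 1, the lowest library, they were 6.09 and 4.23. The Dcn difference of B16F1 was -3.86 without replicate 2. The Fmod to Prelp ratio was steadier, at 1.83, 2.17 and 2.37 in the 3 libraries. It was 8.51, 6.52 and 7.34 in CMS5a and at most 0.0314 in CT26, so that CT26 held Prelp almost without Fmod.

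Other genes of cartilage matrix stood high in the same B16F1 libraries. Col2a1, the collagen of cartilage, was at 320, 632 and 308 TPM in B16F1 and at most 0.823 in B16F10. Its log2 difference in B16F1 from the other lines was 8.47 ± 0.14 (adjusted p = 9.9e-26). Col9a1, a collagen found on cartilage fibrils, was at 49.3, 358 and 84.9 TPM. Hapln1, the link protein that joins versican or aggrecan to hyaluronan, was at 6.10, 102 and 16.8. All 3 genes, like Fmod and Prelp, were highest in replicate 2. The 9 cartilage and bone genes of the marker list summed to 375, 999 and 398 TPM in B16F1 and to at most 51.9 in any library of another line. Nearly all of the B16F1 sum was Col2a1 and Col9a1, so it adds little to the values of those genes given above. The list was not uniformly present: 5 of the 9 genes had a B16F1 mean of at least 1 TPM, Ibsp was at 0 in every B16F1 library, and Sox9, a regulator of cartilage genes, reached only 0.091 TPM there. Melanocyte genes went the other way, summing to 7131, 1473 and 5005 TPM, and fibroblast genes summed to 129, 263 and 97.3. The part of these other transcripts in the Fmod and Prelp values was not tested.

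**Figure D2:**
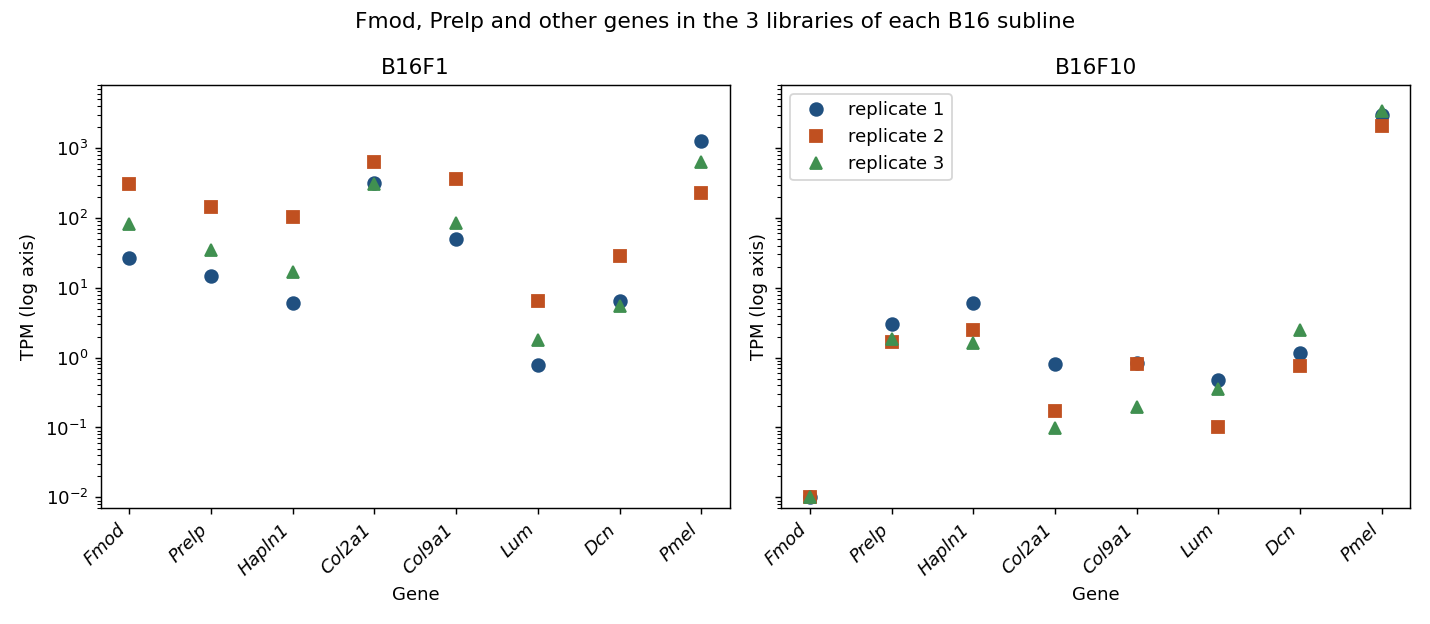
TPM (log axis) of Fmod, Prelp, the cartilage matrix genes Hapln1, Col2a1 and Col9a1, the proteoglycan genes Lum and Dcn, and the melanocyte gene Pmel in the 3 libraries (symbols) of B16F1 and B16F10; values under 0.01 are drawn at 0.01. In B16F1, replicate 2 is highest for every gene except Pmel, for which it is lowest at 228 TPM.

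The promoters of this pair are shown because the genes moved together within lines (r = 0.85 over 30 libraries, 0.58 over the 27 without B16F1), as a description. Over the line means their r was 0.60. Without B16F1 the within-line value was not particular to the pair, as Bgn and Prelp had 0.72 and Fmod and Aspn 0.63. Each is the 200 bases before the RefSeq start in GRCm38.p6, Fmod from chr1:134037054-134037253 on the plus strand and Prelp from chr1:133921402-133921601 on the minus strand, and no base is in capitals because none of the searched motifs matched.
Fmod: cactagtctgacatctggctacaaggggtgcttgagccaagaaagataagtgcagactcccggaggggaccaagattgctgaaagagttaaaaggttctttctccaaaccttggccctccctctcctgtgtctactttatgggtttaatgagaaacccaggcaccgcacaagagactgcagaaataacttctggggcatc
Prelp: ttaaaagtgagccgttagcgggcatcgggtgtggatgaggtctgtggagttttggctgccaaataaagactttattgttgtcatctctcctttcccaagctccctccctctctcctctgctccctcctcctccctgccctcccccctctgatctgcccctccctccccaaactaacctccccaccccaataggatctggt
The motifs searched were TATAAA in the last 50 bases on the gene's own strand (2.63% of all promoters), and, on both strands of the 200 bases, the AP-1 motif TGANTCA (5.48%), the TEAD motif GGAATG (10.1%) and the GC box (31.0%). The G and C content was 49.0% for Fmod and 55.5% for Prelp. These letters were not in these windows, which says nothing of the factors.

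Aspn, Omd and Ogn stand side by side on chromosome 13, in the order Aspn (chr13:49544443-49567565), Omd (chr13:49582462-49592822) and Ogn (chr13:49608046-49624501), with gaps of 14.9 and 15.22 kb, all on the plus strand. Mimecan and osteomodulin were first known from bone and mineralised tissue, and asporin is a relative of decorin that binds collagen and calcium. The gene Cenpp spans all 3 on the opposite strand with line means of 3.14 to 8.84 TPM. The sources do not say if reads were counted by strand, and the part of Cenpp reads in low values of these genes was not tested. In B16F10, Cenpp was at 4.10 to 5.11 TPM while Ogn reached at most 0.146, Aspn 0.122 and Omd 0.027.

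Ogn had the strongest line pattern of the 9 by its F value. EMT6 held 465.8, 300.1 and 424.3 TPM, CMS5a 245, 201 and 140, CT26NYESO1 76.7, 82.3 and 52.9, and CT26 59.0, 68.6 and 51.4. The remaining 6 lines had at most 3.86 TPM in any library. EMT6 did not overlap CMS5a, and CMS5a did not overlap CT26NYESO1, while both CT26 lines overlapped each other. The log2 difference from the other lines was 5.51 ± 0.22 (adjusted p = 1.4e-17) in EMT6, 4.37 ± 0.22 in CMS5a, 2.77 ± 0.22 in CT26NYESO1 and 2.52 ± 0.22 in CT26. Ogn fell in each of the other 6 lines, by 1.75 in MC38OVA to 3.91 in B16F10.

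Omd, like Ogn, was high in CT26 and EMT6, but in CMS5a it did not differ from the other lines by the test (0.10 ± 0.20). Its TPM was 41.0, 16.9 and 22.8 in CT26, 26.3, 13.2 and 18.1 in EMT6 and 5.91, 9.17 and 4.05 in CT26NYESO1. CMS5a held 2.91, 1.89 and 1.67, and no library of the other 6 lines reached 1 TPM. CT26 and EMT6 overlapped, and both lay above CT26NYESO1. Omd was higher by 3.51 ± 0.20 (adjusted p = 5.5e-14) in CT26 and by 3.04 ± 0.20 (adjusted p = 9.5e-13) in EMT6. The Ogn to Omd ratio of TPM had medians of 2.26 in CT26, 13.0 in CT26NYESO1, 22.7 in EMT6 and 84.0 in CMS5a. Omd fell in 6 lines, by 1.01 in MC38 to 1.70 in B16F10, and the MC38 value crossed the fold threshold under many settings, for example to -0.91 without MC38 replicate 1, -0.95 without replicate 2 and -0.98 without EMT6 replicate 1. In MC38OVA the fall of 1.07 became -0.999, short of the threshold, without MC38OVA replicate 3.

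Aspn was spread over more lines. CT26 held 48.8, 91.6 and 49.1 TPM, CMS5a 68.8, 66.0 and 48.6, CT26NYESO1 58.0, 46.9 and 23.8, and LL2 29.98, 39.0 and 26.4. Each of these 4 lines overlapped the next, and all their libraries lay above EMT6 at 9.92, 12.7 and 9.78. Aspn was higher by 2.92 ± 0.25 in CMS5a, 2.91 ± 0.25 in CT26, 2.28 ± 0.25 in CT26NYESO1 and 1.89 ± 0.25 (adjusted p = 5.8e-07) in LL2, and it fell by 2.21 in MC38, 2.22 in MC38OVA, 1.74 in B16F1 and 3.57 in B16F10. Over the 10 line means, Ogn and Omd had the closest correlation of the 36 pairs of tested members (r = 0.85), with Ogn and Aspn at 0.69 and Aspn and Omd at 0.61. Over all 36 pairs, r ran from -0.37 (Prelp and Vcan) to 0.85 with a median of 0.43. LL2 split the neighbours, with Aspn called higher and both Omd and Ogn called lower.

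The promoters of Aspn, Omd and Ogn are shown because the genes are adjacent. Within lines, r was 0.35 for Ogn and Omd, 0.31 for Ogn and Aspn and -0.08 for Aspn and Omd. Closeness over line means was not particular to neighbours. Pairs on different chromosomes, such as Dcn and Vcan (0.81) and Dcn and Aspn (0.79), lay above Ogn and Aspn (0.69). Each is the 200 bases before the RefSeq start on the plus strand of GRCm38.p6, from chr13:49544243-49544442, chr13:49582262-49582461 and chr13:49607815-49608014. Capitals mark a match to one of the same motifs.
Aspn: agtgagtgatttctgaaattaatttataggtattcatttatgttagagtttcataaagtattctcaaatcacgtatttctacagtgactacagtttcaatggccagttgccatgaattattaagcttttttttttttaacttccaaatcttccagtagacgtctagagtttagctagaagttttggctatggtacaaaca
Omd: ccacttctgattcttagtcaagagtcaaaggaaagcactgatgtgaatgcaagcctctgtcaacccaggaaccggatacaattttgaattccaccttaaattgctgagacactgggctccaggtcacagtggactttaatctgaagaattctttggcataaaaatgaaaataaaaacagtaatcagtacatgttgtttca
Ogn: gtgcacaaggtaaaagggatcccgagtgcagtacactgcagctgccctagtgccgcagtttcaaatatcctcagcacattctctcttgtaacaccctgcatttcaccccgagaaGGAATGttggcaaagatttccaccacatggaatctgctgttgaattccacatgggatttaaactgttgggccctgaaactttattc
Ogn holds 1 TEAD motif, 86 bases before the start, a motif that 10.1% of all promoters hold. The G and C content was 31.0% for Aspn, 39.0% for Omd and 47.0% for Ogn, against the 67.0% of Bgn.

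Vcan, which encodes versican, was highest in LL2, CMS5a and EMT6, which also had the highest fibroblast sums. Its TPM was 197, 158 and 155 in LL2, 102, 139 and 63.1 in CMS5a, and 44.8, 46.6 and 44.95 in EMT6, with no overlap from each line to the next. MC38OVA came next at 7.55, 35.3 and 24.6 TPM, and no library of the other 6 lines passed 6.23. Vcan was higher by 4.53 ± 0.28 (adjusted p = 2.5e-13) in LL2, 3.64 ± 0.28 in CMS5a and 2.45 ± 0.28 in EMT6. The MC38OVA rise of 1.10 rested on single libraries: it was 0.67 (adjusted p = 0.094) without replicate 2, 0.92 without replicate 3 and 1.71 without replicate 1. With the B16 sublines left out of the compared lines it was 0.35. Vcan fell by 1.28 in CT26, 1.52 in CT26NYESO1, 1.99 in Renca, 2.93 in B16F1 and 3.16 in B16F10. It overlaps 2 opposite-strand genes, Gm4117 and Gm16318, whose line means were at most 1.09 TPM.

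Acan, which encodes aggrecan, did not pass the filter and was not tested. It was at 1 TPM or more in 2 libraries and listed at 0 in 18. CMS5a held 1.24, 0.838 and 1.03 TPM, and the highest value elsewhere was 0.164 in B16F1 replicate 2. The rise of Col2a1 and Hapln1 in B16F1 was therefore seen with Acan at 0.0173, 0.164 and 0.0472 TPM.

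**Figure D3:**
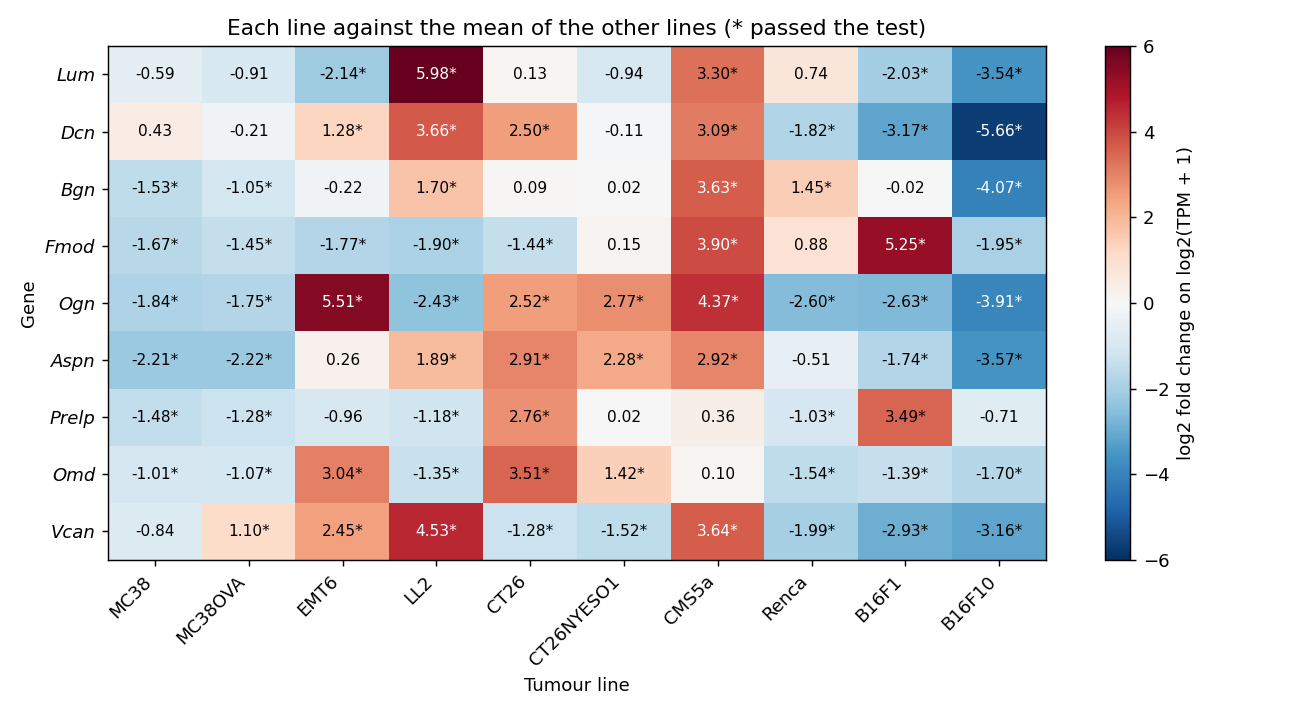
Log2 fold change on log2(TPM + 1) of each tested proteoglycan gene (rows) in each line (columns) against the mean of the other 9 lines; an asterisk marks a gene past both thresholds. CMS5a has 7 genes higher, B16F10 has 8 lower, and LL2 has 5 higher and 4 lower.

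Read by line, CMS5a was the broadest. In CMS5a, 7 of the 9 tested genes were higher (9.23% of all tested genes were) and Prelp and Omd did not pass the test (0.36 ± 0.35 and 0.10 ± 0.20). In LL2, 5 were higher (background 7.98%) and 4 lower (6.53%), which left no tested member uncalled. Counts by line, here and below, include calls that were lost in some fits, as given by gene above. Examples are Prelp in LL2 and Renca, Dcn in EMT6 and Vcan in MC38OVA. Its set of high genes was Lum, Dcn, Bgn, Aspn and Vcan, and Fmod, Ogn, Prelp and Omd were low. CT26 had Dcn, Ogn, Aspn, Prelp and Omd higher (5 genes, background 8.25%) and Fmod and Vcan lower (2 genes, 4.91%). EMT6 had Dcn, Ogn, Omd and Vcan higher (4 genes, background 10.2%) and Lum and Fmod lower (2 genes, 4.70%). CT26NYESO1 had Ogn, Aspn and Omd higher (3 genes, background 6.84%) and Vcan lower (1 gene, 5.71%).

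The remaining lines were mostly low. MC38 and MC38OVA each had the same 6 genes lower, namely Bgn, Fmod, Ogn, Aspn, Prelp and Omd, against backgrounds of 4.06% and 3.59%, and MC38OVA had Vcan higher (10.2%). The 2 lines share a parent, and each stood among the lines compared with the other. Renca had Bgn higher (12.4% of all genes were) and Dcn, Ogn, Prelp, Omd and Vcan lower (10.5%). In B16F1, Fmod and Prelp were higher (8.52%), Bgn did not pass the test (-0.02 ± 0.28), and the other 6 were lower (13.2%). In B16F10, 8 of 9 were lower against 23.2% of all tested genes, and Prelp had a difference of -0.71 ± 0.35 that did not pass. Median-ratio scaling moved the median of all genes in B16F10 by 0.50 (log2) and raised the share of higher calls there from 18.6% to 40.8%, and no called proteoglycan gene changed its direction. Leaving mitochondrial and haemoglobin transcripts out of the TPM total moved that share in EMT6 from 68.5% to 55.7% and changed none of the 91 proteoglycan calls.

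The sum over all 10 genes differed widely between lines. It was 1648 ± 186 TPM (SD over 3 libraries) in LL2, 1580 ± 106 in CMS5a, 722 ± 217 in EMT6 and 645 ± 143 in CT26. B16F1 was at 276 ± 240 (112, 551 and 164 in its libraries), CT26NYESO1 at 266 ± 67.1, Renca at 191 ± 37.1, MC38 at 149 ± 36.9, MC38OVA at 134 ± 32.6 and B16F10 at 7.85 ± 2.62. Without replicate 2 the B16F1 mean was 138, below those of CT26NYESO1, Renca and MC38. TPM is scaled per transcript length, so levels of different genes can be set beside each other. Dcn had the largest share in every library of 5 lines, with a mean of 72.1% of the sum in MC38, 60.5% in CT26, 53.1% in MC38OVA, 48.2% in LL2 and 28.7% in CT26NYESO1. In CMS5a, Dcn (35.5% ± 5.57) and Bgn (33.2% ± 9.88) were within their spread, and Bgn exceeded Dcn in 2 of 3 libraries. Ogn led in EMT6 with 55.9% ± 6.98, and Bgn in Renca with 68.6% and in B16F10 with 41.5%, in every library of each. In B16F1 the order of Fmod and Bgn depended on the library: Fmod held 23.9%, 55.5% and 50.4% of the sum and Bgn 51.6%, 11.4% and 22.2%, and without replicate 2 the means were 37.1% and 36.9%. LL2 and CMS5a had sums within their spread of each other but differed in make-up: Lum was 30.04% ± 2.997 of the sum in LL2 and 5.94% ± 1.53 in CMS5a, whereas Bgn was 9.30% ± 1.80 and 33.2% ± 9.88, and Ogn 0.120% ± 0.072 and 12.3% ± 2.97. These shares are descriptions without a test.

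**Figure D4:**
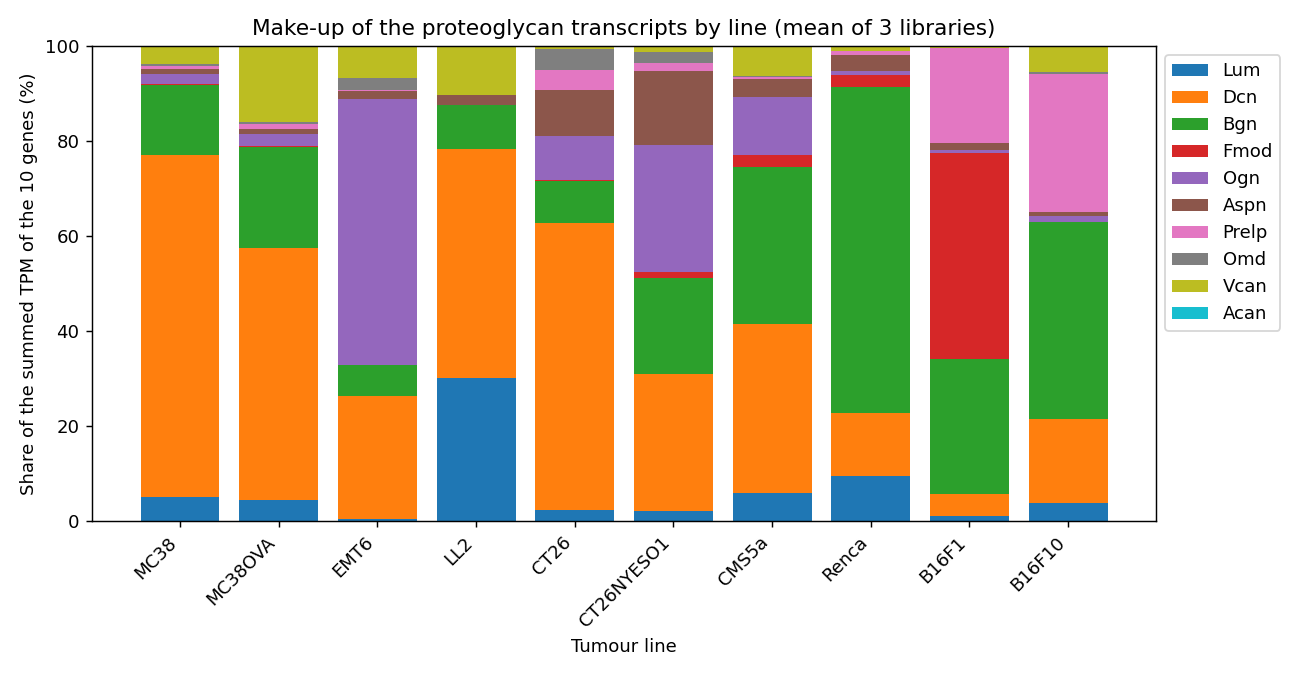
Share of each gene in the summed TPM of the 10 proteoglycan genes (stacked bars, %), as the mean of the 3 libraries of each line. Dcn takes the largest share in MC38, MC38OVA, LL2, CT26 and CT26NYESO1, Ogn in EMT6 (55.9%) and Bgn in Renca (68.6%) and B16F10 (41.5%). Dcn and Bgn are close in CMS5a. In B16F1, Fmod (43.3%) leads in replicates 2 and 3 and Bgn in replicate 1, and their means are close without replicate 2.

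The level of fibroblast markers moved with most of these genes. The 12 markers, among them Dpt, Pdgfra and the fibrillar collagens, summed to 4485 to 5787 TPM in CMS5a, 2334 to 3133 in LL2, 2015 to 2911 in EMT6, 295 to 483 in MC38OVA, 97.3 to 263 in B16F1 and 26.0 to 44.5 in B16F10. In CMS5a and LL2 all 12 had a mean of at least 1 TPM, in B16F10 6 of 12. Over the 10 line means (log2), r with the summed fibroblast markers was 0.90 for Dcn, 0.86 for Bgn, 0.84 for Aspn, 0.76 for Vcan, 0.72 for Lum, 0.68 for Ogn and 0.47 for Omd, but 0.06 for Fmod and -0.11 for Prelp. The same measure with the leukocyte sum was 0.72 for Vcan, 0.65 for Dcn, 0.42 for Lum and -0.63 for Fmod. Within lines, r with the fibroblast sum was 0.80 for Dcn, 0.71 for Prelp, 0.57 for Bgn, 0.56 for Fmod and 0.53 for Ogn. It was 0.36 for Lum, 0.33 for Aspn, 0.26 for Vcan and 0.10 for Omd, with B16F1 replicate 2 included. The line-mean values are descriptions over 10 points that share libraries, and the within-line values are descriptions too. The part of fibroblast content in the differences between lines was not tested. These markers do not separate fibroblasts from tumour cells that express the same genes, and CMS5a is itself a fibrosarcoma. The sum also hides differences in make-up: LL2 and EMT6 overlapped in it, but mean TPM in LL2 and EMT6 was 2317 and 552 for Col3a1, 43.5 and 997 for Col1a2, and 152 and 1.07 for Dpt.

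**Figure D5:**
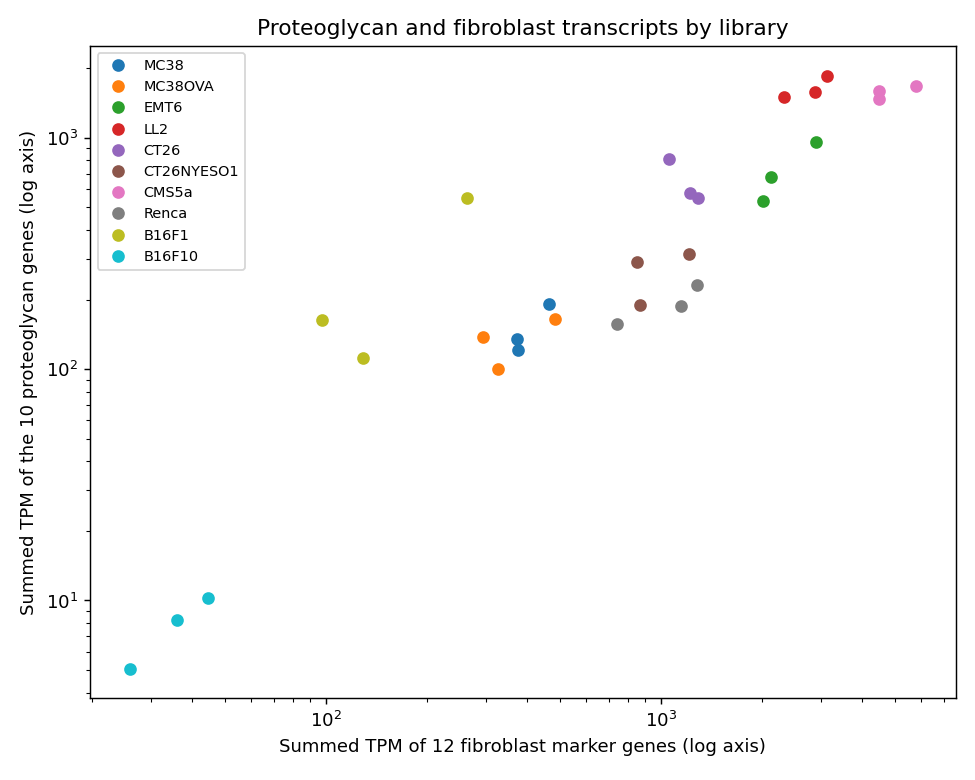
Summed TPM of the 10 proteoglycan genes against summed TPM of 12 fibroblast marker genes (both log axes), 1 point per library, coloured by tumour line. B16F10 sits lowest on both axes, LL2 and CMS5a are highest in proteoglycan transcripts, EMT6 overlaps LL2 in fibroblast markers, and B16F1 replicate 2 holds 551 TPM of proteoglycan transcripts at a fibroblast sum of 263.

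Related lines were compared in pairs. MC38OVA differed from MC38 in 1 tested gene, Vcan, which was higher by 1.75 ± 0.37 (adjusted p = 0.014), where 1.14% of all tested genes were higher. The MC38 libraries held 5.68, 3.32 and 6.23 TPM and the MC38OVA libraries 7.55, 35.3 and 24.6, which did not overlap. The call was lost without MC38 replicate 2 (adjusted p = 0.14), MC38OVA replicate 2 (0.17) or MC38OVA replicate 3 (0.11). The value was 2.36 without MC38OVA replicate 1. Summed leukocyte markers were 616 to 1081 TPM in MC38 and 1176 to 2628 in MC38OVA, and replicates 2 and 3, with the higher Vcan, also held the higher sums of 2628 and 2033. Whether the leukocyte content has a part in the Vcan difference was not tested. The other 8 genes had differences of -0.58 (Dcn) to 0.43 (Bgn) that did not pass.

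CT26NYESO1 differed from CT26 in 3 genes, all lower, where 1.89% of all tested genes were. Dcn was at 81.2, 87.7 and 57.5 TPM in CT26NYESO1 against 332.6, 505.8 and 337.2 in CT26, with no overlap, and was lower by 2.36 on the log2 scale (-2.36 ± 0.42, adjusted p = 0.00048). Prelp was at 5.63, 4.05 and 2.56 TPM against 26.9, 22.7 and 29.4 (-2.47 ± 0.48, adjusted p = 0.0013). Omd was at 5.91, 9.17 and 4.05 TPM against 41.0, 16.9 and 22.8 (-1.88 ± 0.27, adjusted p = 2.4e-05). All libraries of CT26NYESO1 lay below those of CT26 for these genes, while Ogn (0.22 ± 0.29), Bgn (-0.06 ± 0.38) and Aspn (-0.57 ± 0.33) did not pass the test. The Prelp call was lost when replicate 3 of every line was left out (-2.15, adjusted p = 0.19), and the Omd call in a fit of the 6 libraries of the pair alone (adjusted p = 0.073). Summed fibroblast markers overlapped, at 850 to 1213 TPM in CT26NYESO1 and 1059 to 1288 in CT26.

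The changes in the antigen pairs were set against each other. The difference (the change from MC38 to MC38OVA minus that from CT26 to CT26NYESO1) was called for Prelp (2.65 ± 0.67, adjusted p = 0.025), Omd (1.83 ± 0.38, adjusted p = 0.0048) and Vcan (1.96 ± 0.52, adjusted p = 0.035), all 3 in the higher direction that 2.22% of all tested genes took. For Dcn it was 1.78 ± 0.59 and did not pass. The Prelp call was lost, at values of 2.42 to 2.67, without MC38 replicate 2, MC38OVA replicate 3, CT26 replicate 1 or 3, or CT26NYESO1 replicate 2 or 3. The Vcan call was lost, at values of 1.53 to 2.05, without MC38 replicate 1 or 2, MC38OVA replicate 2 or 3, CT26 replicate 1 or 3, or CT26NYESO1 replicate 1 or 2. The Omd call was lost when replicate 1 of every line was left out (1.34, adjusted p = 0.0875), and likewise for replicate 3 (1.875, adjusted p = 0.162). The antigen and any other difference between the paired lines cannot be told apart.

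B16F10 was lower than B16F1 in 7 of 9 genes, where 16.4% of all tested genes were lower. Fmod differed by -6.48 ± 0.49 (adjusted p = 3.0e-11), Prelp by -3.78 ± 0.48, Bgn by -3.64 ± 0.38 (adjusted p = 1.1e-08), Dcn by -2.24 ± 0.42, Aspn by -1.65 ± 0.33, Lum by -1.36 ± 0.46 and Ogn by -1.15 ± 0.29. For Bgn, the library that stood apart held 1.34 times the mean of the other 2 in B16F1, and the values were 57.7, 62.9 and 36.3 TPM against 3.06, 2.03 and 4.85 in B16F10. Without B16F1 replicate 2, Fmod was at -5.59, Prelp at -2.92 and Dcn at -1.55, all still called (without replicate 1, Fmod was at -7.32 and Prelp at -4.51), but the calls of Lum (-0.77, adjusted p = 0.18) and Ogn (-0.74, under the fold threshold) were lost. The Lum call was also lost without B16F10 replicate 2 (-1.24, adjusted p = 0.074). Omd and Vcan were under 1 TPM in every library of both sublines. Summed fibroblast markers were lower in B16F10 as well and did not overlap, and summed melanocyte markers were higher, at 9482 to 13669 TPM.

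Genes that make, bind or cut these proteoglycans were read from lists of named genes. Of 10 other leucine-rich matrix genes 7 were tested and 7 called over the lines, and for chondroitin and dermatan sulfate synthesis the figures were 22 of 22, where 85.5% of all tested genes were. Among leucine-rich relatives, Podnl1 was highest in EMT6 (94.2 ± 7.13 TPM), Tsku in Renca (29.4 ± 3.36) and Chadl, related to chondroadherin, in B16F1 (13.7 ± 9.47). Chadl was called higher in B16F1 by 2.99 ± 0.21. Has2, a hyaluronan synthase, was highest in EMT6 (37.6 ± 3.72 TPM), where it was higher by 4.56 ± 0.14 (adjusted p = 5.0e-20), and 4 of 7 tested genes of hyaluronan synthesis and breakdown were higher there (2 of 7 without mitochondrial and haemoglobin transcripts), where 10.2% of all tested genes were. Hyal1, which cuts hyaluronan, was highest in B16F10 (32.0 ± 7.41 TPM), and Cemip2, which also breaks it down, in LL2 (29.6 ± 6.57). Tnfaip6, which binds hyaluronan in inflamed tissue, was highest in CMS5a (22.3 ± 1.42 TPM), and Lyve1, a hyaluronan receptor of lymphatic endothelium and some macrophages, in LL2 (12.2 ± 5.52).

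Genes of the sugar chains varied by line too. Keratan sulfate synthesis had 6 of 7 tested genes higher in EMT6, with a median log2 difference of 1.29, where 10.2% of all tested genes were higher; it was 5 of 7 under both other scalings. Chst2, a sulfotransferase of this list, was highest in EMT6 (12.5 ± 0.570 TPM), Chst1 in CT26 (50.7 ± 9.89) and Chst5 in LL2 (8.84 ± 1.69). In chondroitin sulfate synthesis, B16F10 had 11 of 22 genes lower, and 7 of 22 with median-ratio scaling, where 23.2% of all tested genes were lower, but Chsy3, a chondroitin synthase, was highest there at 87.0 ± 16.5 TPM and had a mean of 0.0044 in EMT6. Csgalnact1, which starts the chain, was highest in LL2 (27.6 ± 4.67 TPM), and Chst15, which sulfates it, in CT26 (25.8 ± 3.32). Of cell surface and basement membrane proteoglycans, 13 of 16 tested were lower in B16F10, where 23.2% of all tested genes were. Esm1, the endothelial proteoglycan endocan, was highest in CT26 (489 ± 131 TPM), Col18a1 in LL2 (332 ± 51.0) and Sdc2, a syndecan, in CMS5a (299 ± 21.6).

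Fibril collagens, to which the leucine-rich proteins bind, spanned a median of 7.33 (log2) between their highest and lowest line means, against 2.59 for chondroitin and dermatan sulfate synthesis. Of 9 tested, 7 were higher and 1 lower in CMS5a and likewise in EMT6, and 9 of 9 were lower in B16F10 (over all tested genes, 9.23% were higher in CMS5a, 10.2% higher in EMT6 and 23.2% lower in B16F10), with median differences of 2.50, 1.93 and -4.66. Col3a1 was highest in CMS5a at 2566 ± 397 TPM, as were Col1a2 (1207 ± 239) and Col5a2 (390 ± 61.0). Several of these collagens are also on the fibroblast list. Among receptors, Lrp1, which takes up decorin, was highest in LL2 (204 ± 16.2 TPM), Met, which decorin binds, in B16F10 (381 ± 68.1) and Cd14, a co-receptor for biglycan, in EMT6 (193 ± 36.3). Of the proteases that cut proteoglycans, Mmp3 was highest in LL2 (625 ± 140 TPM), Mmp2 in CMS5a (611 ± 53.3) and Adamts5, an aggrecanase, in CMS5a (46.2 ± 9.37). Mmp3 was higher by 6.79 ± 0.35 in LL2 but lower in CMS5a, by 2.29 on the log2 scale (-2.29 ± 0.35).

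For each tested member, the genes with the most similar line means were found among 6128 tested genes whose line means spanned at least 2 on the log2 scale (Pearson r over 10 line means, a description). Clmp, Igsf10 and Cnrip1 followed Lum (r = 0.96, 0.95 and 0.94), each highest in LL2. Fndc3b, Lrig1 and Nfix followed Dcn (r = 0.98, 0.95 and 0.94), and Izumo4, Mblac1 and Spsb1 followed Bgn (0.94, 0.92 and 0.91). For Ogn they were Plk2, Specc1 and Prrx2 (0.97, 0.95 and 0.94), each highest in EMT6. For Fmod they were Cfap100, Srpx2 and Fbp1 (0.95, 0.93 and 0.92), and for Prelp Pak3, Camk2a and Pcdhb18 (0.95, 0.92 and 0.92). The genes named for Fmod and Prelp were all highest in B16F1, with its replicate 2 included. Aspn was followed by Lats2, AA414768 and Tshz1 (0.96, 0.95 and 0.95), Omd by Nipal1, Prag1 and Zfpm2 (0.96, 0.95 and 0.94) and Vcan by Ankrd33b, Osr2 and Ticam2 (0.96, 0.94 and 0.92).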

How the data were processed

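RNA of suspensions of digested tumours was sequenced from TruSeq stranded mRNA libraries, per the labels' protocols. The TPM values were made and deposited by the authors: per the submitters' processing notes, Trim Galore 0.6.5, STAR 2.7.3a, StringTie 2.1.2 and mm10 were used. The annotation and whether reads were counted by strand are not given in the sources used here. Each library sums to 1000000 TPM over 55291 symbols, with no duplicated symbol, unmatched column or identical pair of libraries, and depth is unknown. Libraries were grouped by line from their titles. The 17944 genes with 3 or more libraries at or above 1 TPM were fitted as log2(TPM + 1) with limma 3.58.1 in R 4.3.3 (trend in the variance, a mean per line, 20 residual degrees of freedom), which was tested on simulated data. P-values were adjusted by Benjamini-Hochberg within each comparison over all tested genes. SE are from the fit and SD over 3 libraries. Descriptions used Python 3.11.15, numpy 2.4.6, pandas 2.3.3 and matplotlib 3.10.9. Gene coordinates are from GENCODE on mm10 and promoters from RefSeq on GRCm38.p6, where 8 of the 10 genes matched and Lum and Dcn did not. The members, marker lists and pathway lists were chosen with earlier results of these data known. Named genes were all members, the 3 genes of each pathway list with the widest range of line means among those called, the markers a result turns on, and the 3 genes most like each member. Kera and Cenpp were named as neighbours on the chromosome. The alternatives were a pseudocount of 0.1, no filter, median-ratio scaling, TPM without mitochondrial and haemoglobin transcripts, a replicate block, fits without each library or replicate number in turn, related lines handled as families or left out, B16 left out, and pair-only fits.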

Additional observations from a re-analysis of the deposited data

Results flagged for a closer look

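Prelp, Omd and Vcan changed differently in the antigen pairs by the test of the difference itself, the change from MC38 to MC38OVA minus the change from CT26 to CT26NYESO1 (log2, limma on all 30 libraries). Prelp differed by 2.65, with a change of 0.18 ± 0.48 in the MC38 pair and -2.47 ± 0.48 in the CT26 pair. Omd differed by 1.83, with changes of -0.06 ± 0.27 and -1.88 ± 0.27. Vcan differed by 1.96, with changes of 1.75 ± 0.37 and -0.21 ± 0.37. The Prelp and Omd differences thus come with a fall in CT26NYESO1 and the Vcan difference with a rise in MC38OVA. With a pseudocount of 0.1 none of the 3 passed the test.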

How the results depend on the processing

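Of 91 called results on single proteoglycan genes, 0 changed sign in 3605 alternative values, and 81 values of 18 results fell short of a threshold. The 91 include the 9 calls over the lines, whose value is a range of line means and could not change sign. With a replicate block, 9 of 9 genes were called over the lines and none of the 91 calls changed. The replicate numbers did not pair the libraries: same-numbered libraries of different lines had a median correlation of deviations of 0.0048, against 6e-04 for others. The count of genes called in MC38OVA against MC38 (1) was 0 with limma at a pseudocount of 0.1 and 0 from the 6 libraries of the pair alone (1 gene at an unadjusted p under 0.05 in each), and 0 to 1 with libraries left out. The count for the difference between the antigen pairs (3) was 0 at a pseudocount of 0.1 (4 genes at an unadjusted p under 0.05), 1 without the filter, and 0 to 4 with libraries left out. The count in B16F10 against B16F1 (7) was 4 from the 6 libraries of the pair alone, where Lum, Dcn and Ogn were lost. The cause was not tested. Because TPM keeps no depth, the precision of low values, such as those of Acan, is unknown.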
